A study of Mus musculus with 11 samples.

Results

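Progress through mitosis is run by a small set of enzymes and machines whose genes are switched on together late in the cell cycle. Cyclin-bound CDK1 starts entry, Polo and Aurora kinases build the spindle, kinesin motors and kinetochores move the chromosomes, the checkpoint delays anaphase, and RHOA regulators close the cleavage furrow. Their mRNAs are known as markers of dividing cells. The 50 genes described here belong to this module. All 50 of 50 were found on the array, out of 18193 genes with a probe set of 1 annotated symbol. Where a gene had several probe sets, the one with the highest mean log2 level over all arrays was used.

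The 11 arrays were hybridised with RNA from pools of mouse hearts taken at embryonic day 9.5. The first group, here called CKO-labelled, had the genotype Gata4 flox/flox with Nkx2-5 cre/+ (n = 5 arrays). The second, here called double heterozygous, had Gata4 flox/+ with Nkx2-5 cre/+ (n = 3). The control group had Gata4 flox/+ with Nkx2-5 +/+ (n = 3), so that it carried a floxed Gata4 allele and no Cre. All 3 groups thus shared at least 1 floxed Gata4 allele. Gata4 encodes a GATA-binding factor needed for heart morphogenesis, and the series title ties it to activation of cyclin D2 and to division of myocardium from the second heart field. Cre stands at the Nkx2-5 locus and is made where that gene is active, while a whole heart also holds cells that do not use it. The CKO-labelled and control groups differ in the second floxed Gata4 allele and in Cre at Nkx2-5, which cannot be told apart in that comparison. By their labels, the CKO-labelled and double heterozygous groups differ only in the second floxed allele. The labels name pools but no litters, so p-values measure only how much these samples differ among themselves, and that spread can be technical.

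The level of a gene is the log2 of its deposited intensity plus 16, quantile normalised over the arrays, and a difference is a difference of group means on that scale. A gene was called at an adjusted p under 0.05 from limma's moderated test over all 45037 probe sets. Mean deposited intensity was 117.2 in CKO-labelled array 3, against 166.4 to 175.6 in the other 10 arrays. CKO-labelled array 2 had an actin 3′ minus 5′ signal difference of 1.0 (log2), against 0.295 to 0.45 elsewhere. The same difference for GAPDH was 0.35 in that array, against -0.139 to -0.00716 elsewhere. The sources used here do not say which part of Gata4 is deleted, so its probe sets do not check the labels. In the brighter of 2 probe sets, Gata4 levels were 9.53, 9.28, 9.45, 9.37 and 9.53 in CKO-labelled arrays, 9.40, 9.21 and 9.33 in double heterozygous arrays, and 8.77, 9.09 and 9.09 in control arrays. Both Cre groups lay above the control arrays, with a difference of 0.45 for CKO-labelled minus control (adjusted p = 0.0321). The other probe set gave 0.08 (adjusted p = 0.958), with CKO-labelled array 2 at 6.42 and the other CKO-labelled arrays at 8.26 to 8.81, against 7.98 to 8.15 in control arrays. Nkx2-5 levels were 9.35, 9.59, 9.64, 8.78 and 9.32 in CKO-labelled arrays, 9.54, 9.53 and 9.37 in double heterozygous arrays, and 9.84, 9.83 and 9.93 in control arrays. All Cre arrays lay below all control arrays for Nkx2-5. The 11 cardiomyocyte markers were bright on every array, the lowest deposited intensity being 697.43, and their summed intensity was 63370 to 67680 in CKO-labelled, 64050 to 66250 in double heterozygous and 64500 to 65480 in control hearts.

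In CKO-labelled hearts most mitotic genes had lower levels than in control hearts. Of the 50 genes, 46 had a fitted difference below 0, as did 53.2% of all genes. The median difference was -0.23 over the 50 genes and -0.017 over all genes, on the log2 scale. On the deposited scale the same medians were -0.38 and -0.070, and after median centring -0.38 and -0.079. In 26 of the 50 genes, every CKO-labelled array lay below every control array, against 7.55% of all genes. At an unadjusted p under 0.05, 31 of the 50 were lower, against 9.13% of all genes. Only 4 passed the adjusted threshold, all lower: Kif20a, Pbk, Racgap1 and Cdk1. Among all genes 0.841% were called lower and 1.25% were called higher, and 0 of the 50 were called higher. In whole-heart RNA, fewer dividing cells and less of these mRNAs per cell cannot be told apart. Without CKO-labelled arrays 2 and 3, chosen for removal from their quality values, 45 of the 50 had differences below 0 (56.8% of all genes) and 28 were lower at an unadjusted p under 0.05 (11.3% of all genes). In 31 those 3 CKO-labelled arrays lay below every control array, as they did in 15.5% of all genes, a share that is larger than with 5 arrays.

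**Figure D1:**
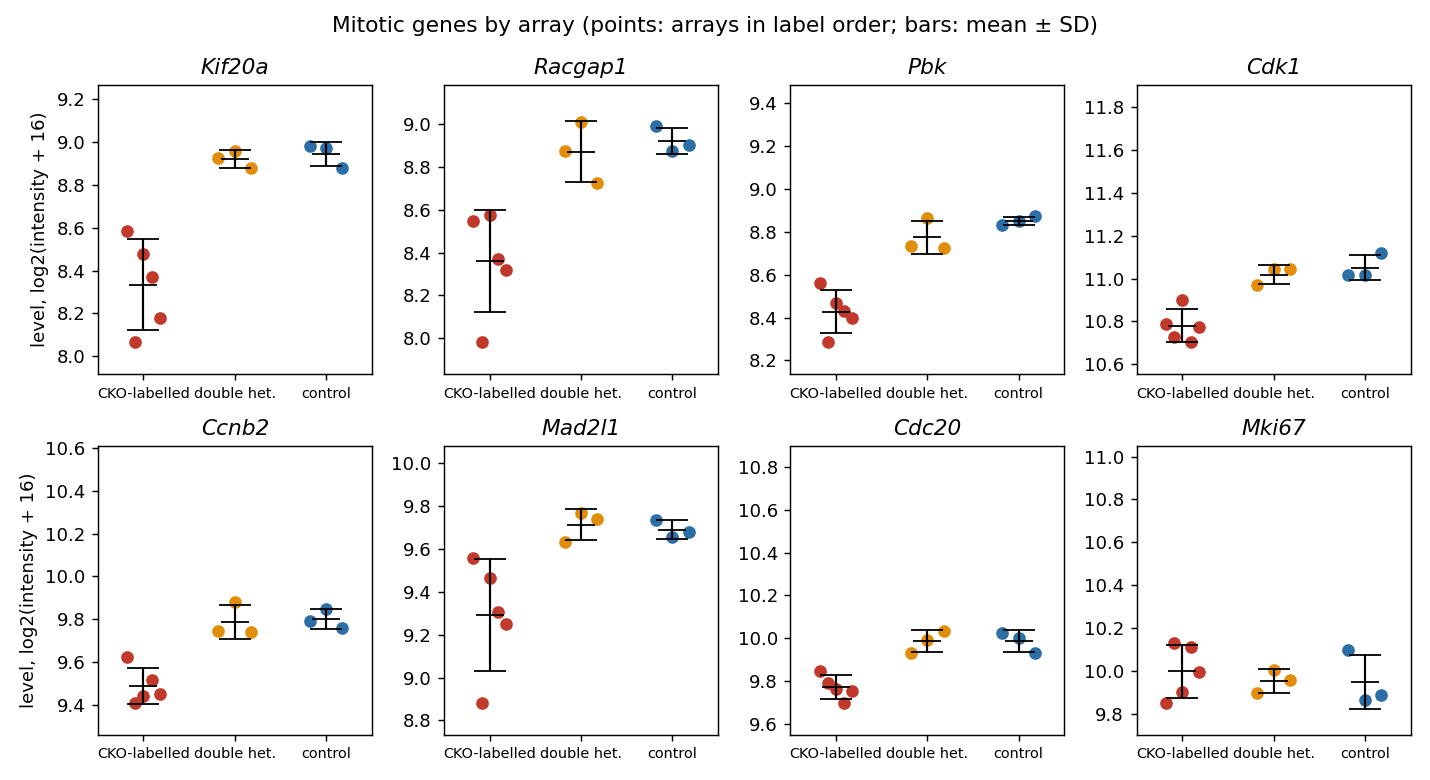
Level of 8 mitotic genes, as log2(intensity + 16) after quantile normalisation, in each CKO-labelled (red, n = 5), double heterozygous (orange, n = 3) and control (blue, n = 3) array; black bars give the mean and SD, and every panel spans the same range of log2 units. In Kif20a, Racgap1, Pbk, Cdk1, Ccnb2, Mad2l1 and Cdc20 all 5 CKO-labelled arrays lie below the other arrays, while in Mki67 the 3 groups overlap.

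Kif20a encodes a kinesin of the central spindle that brings Polo-like kinase to the midzone for cytokinesis. Its levels were 8.58, 8.07, 8.48, 8.37 and 8.18 in CKO-labelled arrays, 8.93, 8.96 and 8.88 in double heterozygous arrays, and 8.98, 8.97 and 8.88 in control arrays. All CKO-labelled arrays lay below both other groups, which overlapped each other. Kif20a fell by 0.61 on the log2 scale relative to control (SE 0.11, adjusted p = 0.0124), a change of -34.4% in intensity plus 16. It also fell relative to double heterozygous hearts, by 0.59 (adjusted p = 0.0336), and was the only gene of the 50 called in that comparison. The call against control did not hold when any single control array was left out (adjusted p over all alternatives 0.000974 to 0.0986), and the one against double heterozygous hearts was lost in 13 of 24 alternatives.

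Racgap1 encodes a subunit of centralspindlin, the complex that bundles midzone microtubules and recruits the RHOA activator ECT2. It measured 8.55, 7.98, 8.57, 8.37 and 8.32 in CKO-labelled arrays, 8.87, 9.01 and 8.73 in double heterozygous arrays, and 8.99, 8.87 and 8.90 in control arrays. The CKO-labelled arrays again stood below all others, with array 2 the lowest. Racgap1 fell by 0.56 (SE 0.12, adjusted p = 0.0359), a change of -32.3%. A second of its 3 probe sets was also called lower (-0.45, adjusted p = 0.0242), while the third, at 0.03, had levels of 4.0 to 4.34 in CKO-labelled and 4.0 to 4.22 in control arrays, the bottom of the scale. The difference from double heterozygous hearts was -0.51, with an adjusted p of 0.105.

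Pbk, a MAPKK-like kinase active in mitosis, had levels of 8.56, 8.29, 8.47, 8.43 and 8.40 in CKO-labelled arrays, 8.73, 8.86 and 8.73 in double heterozygous arrays, and 8.83, 8.85 and 8.87 in control arrays. CKO-labelled and control arrays did not overlap, and the control arrays spanned only a few hundredths of a unit. Pbk fell by 0.42 (SE 0.086, adjusted p = 0.0263), or -25.4%. Cdk1, the kinase that drives mitotic entry, had levels of 10.79, 10.73, 10.90, 10.70 and 10.78 in CKO-labelled arrays, 10.97, 11.04 and 11.04 in double heterozygous arrays, and 11.02, 11.02 and 11.12 in control arrays. All 5 CKO-labelled arrays were below all 6 others. Cdk1 fell by 0.27 (SE 0.063, adjusted p = 0.0493), or -17.1%, the smallest change of the 4. The calls of Racgap1, Pbk and Cdk1 were each lost when any 1 control array was left out. Of 24 alternatives, 12 ended the call of Racgap1, 9 that of Pbk and 16 that of Cdk1.

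Cdk1 and its relatives are known to carry short promoter motifs through which the DREAM and MMB-FOXM1 complexes bind, the cell cycle homology region (CHR, TTTGAA) and CCAAT boxes bound by NF-Y. To show these motifs, promoter windows of the 6 members with the smallest p among those with a RefSeq entry are printed 5′ to 3′ on the gene's strand, from 250 bases before to 50 after the annotated start. Build GRCm38.p6 from RefSeq was used. Capitals mark TTTGAA and CCAAT on either strand, so that CCAAT on the other strand reads ATTGG. The windows are Racgap1 at chr15:99651607-99651906, Cdk1 at chr10:69352863-69353162, Ccnb2 at chr9:70421505-70421804, Kif23 at chr9:61946750-61947049 and Aurka at chr2:172370521-172370820, all on the minus strand, and Bub1b at chr2:118597961-118598260 on the plus strand.
Racgap1: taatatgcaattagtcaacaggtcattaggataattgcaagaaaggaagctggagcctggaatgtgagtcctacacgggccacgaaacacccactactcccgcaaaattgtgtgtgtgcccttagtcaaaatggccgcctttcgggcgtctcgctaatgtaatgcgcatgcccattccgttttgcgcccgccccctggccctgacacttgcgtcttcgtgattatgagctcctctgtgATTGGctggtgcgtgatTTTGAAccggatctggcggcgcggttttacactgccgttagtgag
Cdk1: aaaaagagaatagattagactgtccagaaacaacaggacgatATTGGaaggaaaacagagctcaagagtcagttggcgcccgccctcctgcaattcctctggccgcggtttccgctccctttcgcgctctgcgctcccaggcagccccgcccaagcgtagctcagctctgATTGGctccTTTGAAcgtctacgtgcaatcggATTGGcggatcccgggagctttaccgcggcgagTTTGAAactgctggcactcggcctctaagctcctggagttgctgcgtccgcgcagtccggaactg
Ccnb2: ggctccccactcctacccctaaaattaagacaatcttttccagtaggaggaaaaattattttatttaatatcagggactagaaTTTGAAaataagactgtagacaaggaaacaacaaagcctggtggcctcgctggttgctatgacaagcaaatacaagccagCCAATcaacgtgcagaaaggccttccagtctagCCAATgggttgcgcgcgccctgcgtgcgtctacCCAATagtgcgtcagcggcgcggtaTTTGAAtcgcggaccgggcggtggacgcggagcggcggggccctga
Kif23: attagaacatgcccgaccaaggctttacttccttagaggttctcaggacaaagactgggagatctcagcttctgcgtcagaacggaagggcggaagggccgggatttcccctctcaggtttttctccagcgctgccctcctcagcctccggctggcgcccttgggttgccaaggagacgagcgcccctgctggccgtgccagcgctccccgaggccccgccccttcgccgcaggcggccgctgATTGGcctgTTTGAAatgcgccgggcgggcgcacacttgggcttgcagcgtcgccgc
Bub1b: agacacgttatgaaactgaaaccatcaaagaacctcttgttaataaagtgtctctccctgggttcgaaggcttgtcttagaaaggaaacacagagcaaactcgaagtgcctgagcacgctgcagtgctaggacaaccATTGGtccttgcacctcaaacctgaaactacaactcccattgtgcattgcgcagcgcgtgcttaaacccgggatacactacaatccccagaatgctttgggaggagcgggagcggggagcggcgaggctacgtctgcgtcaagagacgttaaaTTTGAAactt
Aurka: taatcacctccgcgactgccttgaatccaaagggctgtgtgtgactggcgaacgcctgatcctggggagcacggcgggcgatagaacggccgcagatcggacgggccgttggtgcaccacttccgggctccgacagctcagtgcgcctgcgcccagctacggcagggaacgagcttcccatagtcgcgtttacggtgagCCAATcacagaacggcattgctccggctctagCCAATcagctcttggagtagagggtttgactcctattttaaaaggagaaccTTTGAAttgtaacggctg

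Counted from the annotated start as +1, TTTGAA began at +6 in Racgap1, at -71 and -15 in Cdk1, at -167 and +5 in Ccnb2, at +3 in Kif23, at +41 in Bub1b and at +33 in Aurka. In Cdk1, whose product gives the module its central enzyme, 3 CCAAT boxes lay at -208, -80 and -48. Ccnb2 had 3 at -87, -54 and -21. Over the module, 42 of 50 genes had a promoter entry, and Kif20a and Pbk were among the 8 without one. TTTGAA on either strand was found in 30 of the 42 (71.4%), against 16.5% of 17491 promoters with 1 window per protein-coding gene. In the 50 bases before and 50 after the start, the shares were 66.7% and 3.99%. CCAAT was found in 71.4% of the module and 39.0% of all promoters, and both motifs together in 59.5% and 6.54%. The E2F words TTTCGCGC and TTTGGCGC occurred in 7.14% and 1.09%. A match is a string of letters in a window and was not tested for binding. The 30 genes with TTTGAA had a median CKO-labelled minus control difference of -0.24, with 29 below 0, and the 12 without it had a median of -0.14, with 10 below 0. Both sets thus held mostly lower genes, and the difference between them was not tested.

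**Figure D2:**
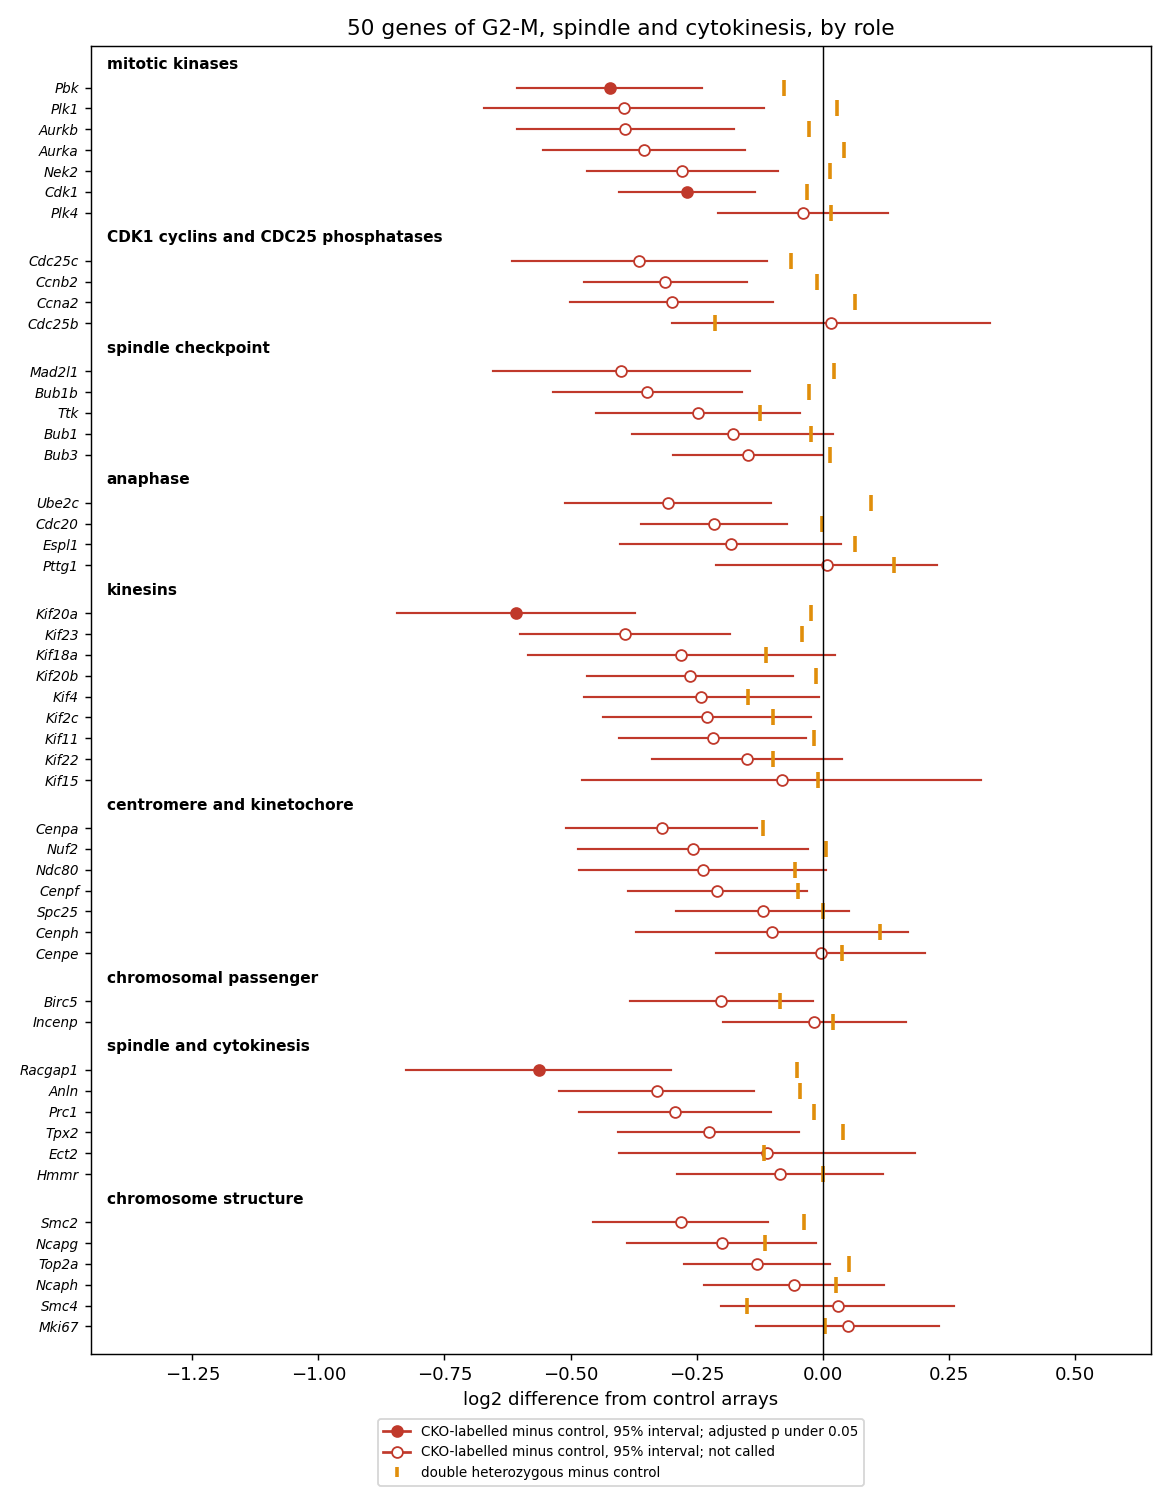
Log2 difference of CKO-labelled minus control hearts (red circles with 95% confidence intervals from limma; filled, adjusted p under 0.05) and of double heterozygous minus control hearts (orange ticks) for the 50 genes, grouped by role from top to bottom. The filled circles are Pbk, Cdk1, Kif20a and Racgap1, and 46 of the 50 circles lie left of 0, while the orange ticks lie between -0.21 and 0.14.

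Among the 7 mitotic kinases all had a difference below 0 for CKO-labelled minus control, with a median of -0.35, the lowest of the 9 roles. Pbk and Cdk1 were called, and 6 of 7 were lower at an unadjusted p under 0.05. The other values were -0.39 for Plk1 (adjusted p = 0.173), which drives centrosome maturation and cytokinesis, -0.39 for Aurkb (0.0760), the chromosomal passenger kinase, -0.35 for Aurka (0.0833), the spindle pole kinase, and -0.28 for Nek2 (0.158), which splits centrosomes. None of these was called. Plk4, which starts centriole duplication around S phase, stood at -0.04 with a 95% interval of -0.21 to 0.13. Its CKO-labelled levels of 8.96 to 9.11 overlapped the control levels of 9.03 to 9.18. Dimmer probe sets of Plk4 stood at -0.19 and -0.25, neither of them called. In the one at -0.25, CKO-labelled array 2 stood at 6.24 and the other CKO-labelled arrays at 7.16 to 7.44, against 7.26 to 7.48 in control arrays. Aurka levels were 9.31, 9.07, 9.26, 8.92 and 9.02 in CKO-labelled arrays, 9.47, 9.55 and 9.53 in double heterozygous arrays, and 9.54, 9.43 and 9.44 in control arrays. Although its CKO-labelled arrays lay below all others, Aurka was not called in this probe set. Its second probe set lay at the bottom of the scale, with CKO-labelled levels of 4.0 to 4.82 and control levels of 4.0 to 4.32.

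Of the 4 cyclin and CDC25 genes, whose products switch CDK1 on, 3 had differences below 0 (median -0.31) and none was called. Ccnb2, encoding cyclin B2, had levels of 9.63, 9.41, 9.44, 9.52 and 9.45 in CKO-labelled arrays, 9.75, 9.88 and 9.74 in double heterozygous arrays, and 9.79, 9.85 and 9.76 in control arrays. The CKO-labelled arrays lay below all 6 others, yet the difference of -0.31 (SE 0.076) missed the threshold, with an adjusted p of 0.0584. Ccna2, encoding cyclin A2, measured 10.21, 9.75, 10.19, 10.02 and 9.94 in CKO-labelled arrays, 10.38, 10.36 and 10.41 in double heterozygous arrays, and 10.38, 10.26 and 10.32 in control arrays. The CKO-labelled arrays again lay below all others, with a difference of -0.30 (adjusted p = 0.149). A second bright probe set of Ccna2 gave only -0.088 (adjusted p = 0.614). Its CKO-labelled levels of 10.045 to 10.169 reached the control levels of 10.166 to 10.226. Cdc25c, a phosphatase that removes the inhibitory phosphates of CDK1, stood at -0.36 (adjusted p = 0.166). Its relative Cdc25b had levels of 6.30, 6.10, 5.69, 6.12 and 6.10 in CKO-labelled arrays, 5.83, 5.85 and 5.81 in double heterozygous arrays, and 5.87, 6.20 and 6.06 in control arrays. The CKO-labelled arrays of Cdc25b fell on both sides of the control arrays, with a difference of 0.02 and an interval of -0.30 to 0.33.

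The 5 spindle checkpoint genes all had differences below 0 (median -0.25), 4 of them at an unadjusted p under 0.05, and none was called. Bub1b encodes BUBR1, which holds back the anaphase-promoting complex. Bub1b levels were 8.72, 8.87, 8.89, 8.65 and 8.62 in CKO-labelled arrays, 9.10, 9.0 and 9.11 in double heterozygous arrays, and 9.14, 9.04 and 9.12 in control arrays. The CKO-labelled arrays lay below all others, and the difference was -0.35 (SE 0.088, adjusted p = 0.0692). Mad2l1, encoding the MAD2 checkpoint protein, measured 9.56, 8.88, 9.47, 9.30 and 9.25 in CKO-labelled arrays, 9.63, 9.77 and 9.74 in double heterozygous arrays, and 9.74, 9.66 and 9.68 in control arrays. CKO-labelled array 2 was the lowest by a wide margin, and the difference was -0.40 (adjusted p = 0.130). Ttk, the MPS1 kinase that starts checkpoint signalling, stood at -0.25, Bub1 at -0.18 and Bub3 at -0.15. Bub3 had 5 probe sets. The 2 brightest stood at -0.15 and -0.38, while the 3 above 0 were dim, with mean CKO-labelled levels of 4.74, 5.22 and 5.08.

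For anaphase, 3 of 4 genes were below 0 (median -0.20) and none was called. Cdc20, the activator of the anaphase-promoting complex, had levels of 9.85, 9.79, 9.76, 9.70 and 9.75 in CKO-labelled arrays, 9.93, 9.99 and 10.03 in double heterozygous arrays, and 10.027, 10.003 and 9.930 in control arrays. All CKO-labelled arrays lay below the rest, with a difference of -0.21 (SE 0.068, adjusted p = 0.152). Another bright probe set of Cdc20, singled out after its value was seen, stood at -0.33 (adjusted p = 0.0874). It was called in the F-test over the 3 groups (adjusted p = 0.0424). A dimmer probe set of Cdc20 stood at -0.24 (adjusted p = 0.459). Ube2c, the ubiquitin-conjugating enzyme of that complex, measured 10.99, 10.71, 10.91, 10.47 and 10.73 in CKO-labelled arrays, 11.16, 11.24 and 11.11 in double heterozygous arrays, and 11.13, 10.98 and 11.10 in control arrays. CKO-labelled array 1 overlapped the lowest control array by a hundredth of a unit, and the difference was -0.31 (adjusted p = 0.147). Espl1, encoding separase, stood at -0.18. Its inhibitor securin, encoded by Pttg1, had levels of 10.94, 11.08, 10.77, 10.66 and 11.09 in CKO-labelled arrays, 10.91, 11.12 and 11.08 in double heterozygous arrays, and 11.01, 10.72 and 10.97 in control arrays. These overlapped throughout, with a difference of 0.01 and an interval of -0.21 to 0.23.

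All 9 kinesins had differences below 0, with a median of -0.24, and Kif20a was the one called. Kif23, whose product is the motor subunit of centralspindlin and the partner of RACGAP1, had levels of 9.25, 9.46, 9.28, 9.13 and 9.03 in CKO-labelled arrays, 9.52, 9.69 and 9.54 in double heterozygous arrays, and 9.54, 9.59 and 9.74 in control arrays. The CKO-labelled arrays lay below both other groups, and the difference was -0.39 (SE 0.097, adjusted p = 0.0645). The rest were Kif18a at -0.28, Kif20b at -0.26, the chromokinesin Kif4 at -0.24, the microtubule depolymerase Kif2c at -0.23, the bipolar motor Kif11 at -0.22, Kif22 at -0.15 and Kif15 at -0.08. None of these was called in the probe set chosen here. Another probe set of Kif22, singled out after its value was seen, was called lower (-0.44, adjusted p = 0.0269). Kif15 was near the bottom of the scale, with levels of 4.04 to 4.68 in CKO-labelled and 4.27 to 4.60 in control arrays, so its value says little about this motor.

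The centromere and kinetochore genes were 7 of 7 below 0, with a median of -0.21, 3 of them lower at an unadjusted p under 0.05, and none was called. Cenpa encodes the histone H3 variant that marks centromeres. Its levels were 9.79, 9.67, 9.61, 9.5 and 9.48 in CKO-labelled arrays, 9.88, 9.89 and 9.66 in double heterozygous arrays, and 10.002, 9.916 and 9.869 in control arrays. CKO-labelled arrays lay below all control arrays but overlapped the double heterozygous ones, and the difference from control was -0.32 (adjusted p = 0.0984). The other 2 probe sets of Cenpa were not called, one at 0.04 near the bottom of the scale and one at 0.51 with levels of 5.94 to 7.06 in CKO-labelled and 5.82 to 6.11 in control arrays. Cenpf, a large kinetochore and nuclear envelope protein gene, measured 8.66, 8.76, 8.64, 8.60 and 8.61 in CKO-labelled arrays, 8.84, 8.82 and 8.77 in double heterozygous arrays, and 8.99, 8.82 and 8.78 in control arrays. The CKO-labelled arrays were the lowest 5, with a difference of -0.21 (adjusted p = 0.283). Of the NDC80 complex, which grips microtubules, Nuf2 stood at -0.26, Ndc80 at -0.24 and Spc25 at -0.12. Cenph, of the inner kinetochore, stood at -0.10, and the motor gene Cenpe at -0.004 with an interval of -0.21 to 0.20. A dimmer probe set of Cenpe went the other way, at 0.36 (interval 0.018 to 0.71, adjusted p = 0.349). Its levels were 7.30 to 7.95 in CKO-labelled and 7.19 to 7.45 in control arrays.

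The spindle and cytokinesis genes were 6 of 6 below 0, with a median of -0.26 and Racgap1 called. Anln encodes anillin, which scaffolds actin, septins and RHOA in the furrow. Anln levels were 9.65, 9.32, 9.57, 9.69 and 9.49 in CKO-labelled arrays, 9.76, 9.94 and 9.79 in double heterozygous arrays, and 9.94, 9.90 and 9.79 in control arrays. The CKO-labelled arrays lay below both other groups, with a difference of -0.33 (SE 0.091, adjusted p = 0.0967). Prc1, the bundler of midzone microtubules, stood at -0.29, and Tpx2, the activator of Aurora A on the spindle, at -0.23. Ect2, the RHOA exchange factor that RACGAP1 recruits, stood at -0.11 with an interval of -0.40 to 0.18, and its CKO-labelled levels of 8.5 to 9.24 spanned those of the control arrays. Hmmr stood at -0.08, with dimmer probe sets at -0.83, -0.30, -0.26 and 0.11, none of them called. In the one at -0.83, CKO-labelled array 2 stood at 5.13 and the other CKO-labelled arrays at 6.84 to 7.91, against 7.71 to 8.07 in control arrays.

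Of the chromosomal passenger genes, Birc5 (survivin) had levels of 9.81, 9.94, 9.80, 9.56 and 9.65 in CKO-labelled arrays, 9.87, 9.87 and 9.86 in double heterozygous arrays, and 9.998, 9.948 and 9.909 in control arrays. CKO-labelled array 2 overlapped the control arrays, and the difference was -0.20 (adjusted p = 0.314). Incenp, the scaffold of that complex, measured 8.94, 9.10, 8.91, 8.96 and 9.05 in CKO-labelled arrays, 8.97, 8.94 and 9.17 in double heterozygous arrays, and 8.98, 9.07 and 8.98 in control arrays. Its groups overlapped, with a difference of -0.02 and an interval of -0.20 to 0.17.

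Chromosome structure genes had the median nearest to 0 of the 9 roles, -0.094, with 4 of 6 below 0 and none called. The condensin subunit gene Smc2 had levels of 9.65, 9.53, 9.69, 9.73 and 9.44 in CKO-labelled arrays, 9.82, 9.89 and 9.86 in double heterozygous arrays, and 9.99, 9.85 and 9.83 in control arrays. The CKO-labelled arrays lay below both other groups (difference -0.28, adjusted p = 0.115). Ncapg, a condensin I subunit gene, measured 8.35, 8.34, 8.26, 8.39 and 8.29 in CKO-labelled arrays, 8.33, 8.39 and 8.51 in double heterozygous arrays, and 8.54, 8.63 and 8.42 in control arrays. It was below the control arrays but overlapped the double heterozygous ones, with a difference from control of -0.20 (adjusted p = 0.339). Top2a stood at -0.13 and Ncaph at -0.06. Smc4, the partner of SMC2 in condensin, had levels of 11.36, 11.08, 11.21, 11.71 and 11.28 in CKO-labelled arrays, 11.13, 11.08 and 11.23 in double heterozygous arrays, and 11.18, 11.35 and 11.37 in control arrays. Its groups overlapped, with a difference of 0.03 and an interval of -0.20 to 0.26. The median of this role rests on 1 probe set per gene. Dimmer probe sets stood at -0.31 for Ncaph (adjusted p = 0.157) and at -0.33 and -0.10 for Smc4. In the Smc4 probe set at -0.33, CKO-labelled array 2 stood at 7.16 and the other CKO-labelled arrays at 8.20 to 8.59, against 8.28 to 8.54 in control arrays. Those of Smc2 stood at -0.35, -0.21, -0.11 and 0.20, and those of Top2a at 0.19 and, near the bottom of the scale, -0.07. None of these was called.

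Mki67 encodes Ki-67, the coat protein of mitotic chromosomes that is widely stained as a proliferation marker. Its levels were 9.85, 10.13, 9.90, 10.11 and 9.99 in CKO-labelled arrays, 9.90, 10.01 and 9.96 in double heterozygous arrays, and 10.10, 9.86 and 9.89 in control arrays. The 3 groups overlapped fully. The difference from control was 0.05 with an interval of -0.13 to 0.23, whose lower bound lies above the module's median of -0.23. Mki67, Cdc25b, Pttg1 and Smc4, the 4 members above 0, stood below 0 on the deposited scale and after median centring, scalings that moved the whole module down. On the deposited scale Mki67 stood at -0.099, beside the module's median of -0.38 and the all-gene median of -0.070.

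**Figure D3:**
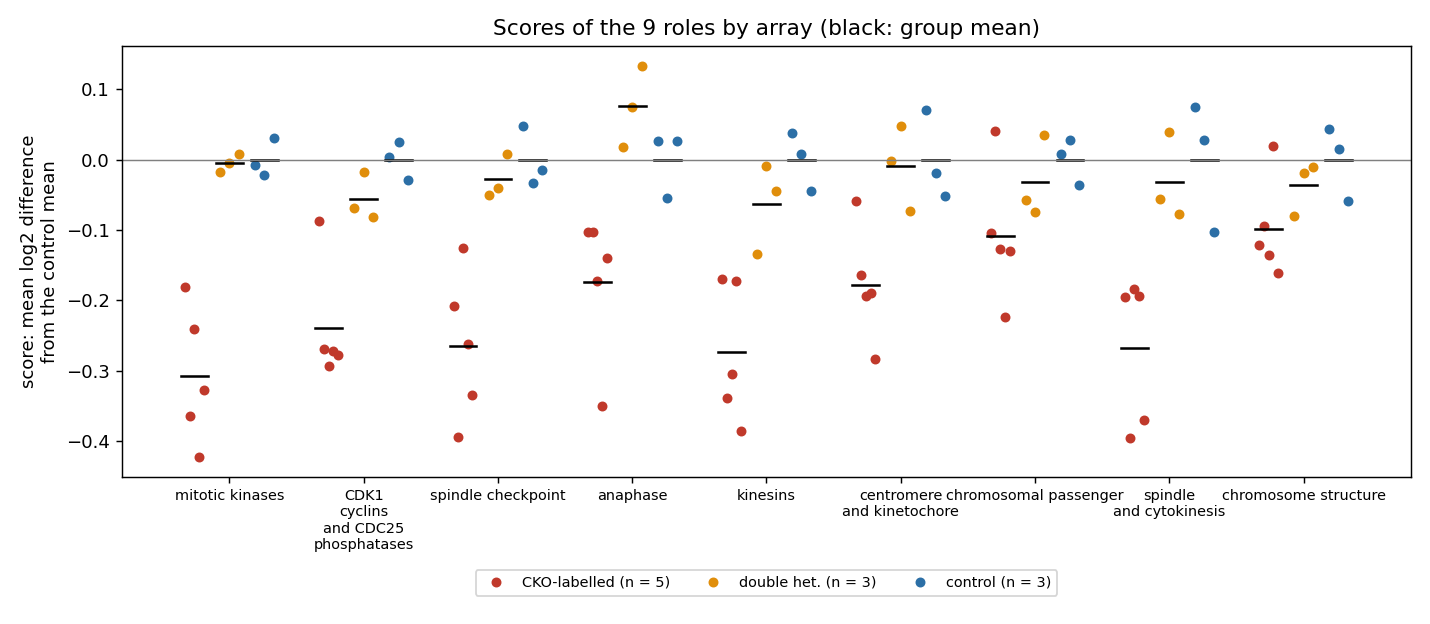
Score of each of the 9 roles in every CKO-labelled (red, n = 5), double heterozygous (orange, n = 3) and control (blue, n = 3) array, where a score averages, over the genes of a role, the log2 level minus that of the control group; black lines are group means. The red points lie below the orange and blue points in the mitotic kinase, CDK1 cyclin and CDC25, spindle checkpoint, anaphase, kinesin and spindle and cytokinesis roles, and overlap them in the centromere, chromosomal passenger and chromosome structure roles.

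Scores averaged over genes show how alike the arrays were. Over the 50 genes the CKO-labelled arrays had scores of -0.14, -0.26, -0.21, -0.22 and -0.29, the double heterozygous arrays -0.05, 0.004 and -0.02, and the control arrays 0.04, -0.004 and -0.03. All CKO-labelled arrays lay below all others, array 1 being the nearest to them. The array of low total intensity and the one of high actin 3′ signal, CKO-labelled 3 and 2, stood inside the range of the other CKO-labelled arrays. Mitotic kinase scores were -0.18, -0.36, -0.24, -0.42 and -0.33 in CKO-labelled arrays, -0.02, -0.005 and 0.008 in double heterozygous arrays, and -0.008, -0.02 and 0.03 in control arrays. For kinesins they were -0.17, -0.34, -0.30, -0.17 and -0.38 in CKO-labelled arrays, -0.13, -0.009 and -0.04 in double heterozygous arrays, and 0.04, 0.007 and -0.04 in control arrays. For the spindle checkpoint they were -0.21, -0.39, -0.13, -0.26 and -0.33 in CKO-labelled arrays, -0.05, -0.04 and 0.008 in double heterozygous arrays, and 0.05, -0.03 and -0.02 in control arrays. In these 3 roles the CKO-labelled arrays did not overlap the other groups, while their order differed from role to role. Centromere scores were -0.06, -0.16, -0.19, -0.19 and -0.28 in CKO-labelled arrays, -0.001, 0.05 and -0.07 in double heterozygous arrays, and 0.07, -0.02 and -0.05 in control arrays, so that CKO-labelled array 1 overlapped a double heterozygous array. The CKO-labelled group means were -0.31 for kinases, -0.27 for kinesins, -0.26 for the checkpoint and -0.18 for centromere genes, with SDs over 5 arrays of 0.097, 0.098, 0.11 and 0.080. The roles were scored on the same 5 arrays, so these SDs do not measure the spread of a difference between roles. In every CKO-labelled array the kinase score lay below the centromere score. Every other pair of these roles changed order between arrays. No order among the roles was tested.

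The same genes lay near the control level in double heterozygous hearts. For double heterozygous minus control, 31 of the 50 genes were below 0, against 51.2% of all genes, and the median was -0.02, against -0.004 over all genes. No member was called, lower or higher, and 0% of all genes were called lower and 0% higher by limma. At an unadjusted p under 0.05, 0 of the 50 were lower or higher, against 1.58% and 1.33% of all genes. The 3 double heterozygous arrays lay below all control arrays in 2 genes, Cdc25b and Birc5, against 6.22% of all genes.

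The second comparison holds Cre and the Nkx2-5 genotype constant. For CKO-labelled minus double heterozygous, 46 of the 50 genes were below 0, against 52.3% of all genes, with a median of -0.20 over the 50 and -0.011 over all genes. In 26 genes the CKO-labelled arrays were below all double heterozygous arrays, against 5.54% of all genes, and 27 were lower at an unadjusted p under 0.05, against 7.5%. The kinase median was -0.35, the checkpoint median -0.16, the kinesin median -0.17 and the centromere median -0.18. Kif20a was the 1 gene called lower and none was called higher, where 0.0934% of all genes were called lower and 0.445% higher. Both comparisons use the same CKO-labelled arrays. In the F-test over the 3 groups, 3 of the 50 were called, Kif20a (adjusted p = 0.0109), Pbk (0.0373) and Racgap1 (0.0441), against 1.47% of all genes.

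**Figure D4:**
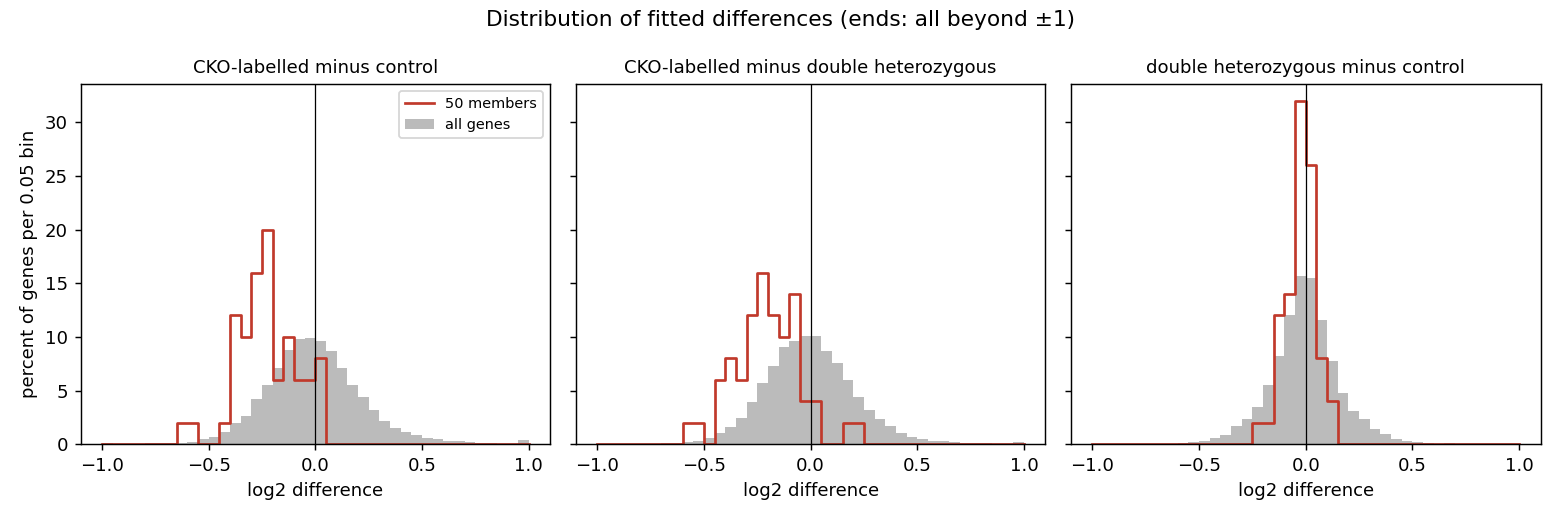
Percent of genes in bins of 0.05 log2 units for all 18193 genes (grey) and the 50 members (red line) in the 3 comparisons, CKO-labelled minus control, CKO-labelled minus double heterozygous and double heterozygous minus control. The red line is centred near -0.2 in both CKO-labelled comparisons and near 0 in the third.

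Genes of neighbouring steps were counted in lists that do not overlap the module. The matching shares over all genes, for CKO-labelled minus control, were 53.2% below 0 and 0.841% called lower. Of 53 other measured G2-M genes, 50 had differences below 0 for CKO-labelled minus control (median -0.21), and 1 was called, Ska1 of the outer kinetochore (-0.55, adjusted p = 0.0499). Among them Cenpn stood at -0.46 (0.0604) and Cenpi at -0.42 (0.0961). Of 24 DNA replication genes, all were below 0 (median -0.28) and 3 were called lower, the sliding clamp gene Pcna (-0.38, adjusted p = 0.0171), Gins1 of the replicative helicase (-0.49, 0.0356) and the thymidine kinase gene Tk1 (-0.66, 0.0473). Pcna was also called lower against double heterozygous hearts (-0.39, 0.0284). Lower values were thus measured in S phase genes as well as in the mitotic module.

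Subunits and regulators of the anaphase-promoting complex gave 11 of 14 below 0 with a median of -0.042, and Cdc23 alone was called (-0.42, adjusted p = 0.0189). Fzr1, the activator in late mitosis and G1, stood at -0.31 and Anapc2 at 0.17. For 15 transcriptional regulators of G2-M genes, 13 were below 0 with a median of -0.13, and none was called. Their values ran from -0.40 to 0.31, with 4 lower and 1 higher at an unadjusted p under 0.05. Mybl2, the B-MYB subunit of MMB, stood at -0.37 (adjusted p = 0.189), Tfdp1 at -0.24 (0.182) and E2f5 at -0.40 (0.304). Cohesin genes gave 3 of 9 below 0, a median of 0.043 and no call, with Nipbl at 0.24, Pds5a at 0.11 and Stag2 at 0.10. Ccnd2, encoding cyclin D2, had levels of 11.04, 11.48, 11.14, 11.03 and 11.05 in CKO-labelled arrays, 11.56, 11.52 and 11.74 in double heterozygous arrays, and 11.61, 11.59 and 11.67 in control arrays. The CKO-labelled arrays lay below all others, and Ccnd2 fell by 0.48 relative to control (SE 0.093, adjusted p = 0.0197) and by 0.46 relative to double heterozygous hearts (adjusted p = 0.0497).

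**Figure D5:**
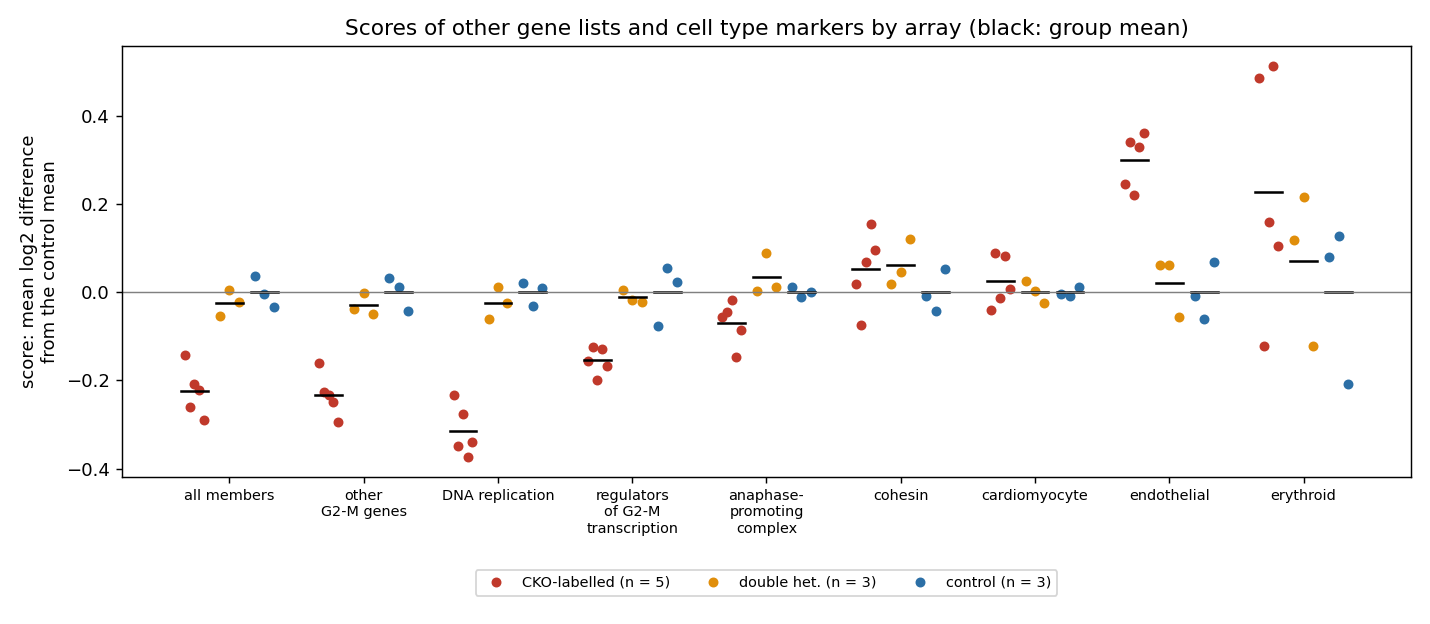
Score, as the average log2 level minus that of the control group, of the 50 mitotic genes, of 5 neighbouring gene lists and of 3 cell type marker lists in each CKO-labelled (red), double heterozygous (orange) and control (blue) array, with group means in black. The 50 members, the other G2-M genes and the DNA replication genes are lower in every CKO-labelled array. So are the regulators of G2-M transcription and, narrowly, the anaphase-promoting complex list (CKO-labelled array 3 at -0.018, control array 2 at -0.011). The endothelial markers are higher in every CKO-labelled array, and the cohesin, cardiomyocyte and erythroid lists overlap.

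Markers of other cell types were measured beside the module. Endothelial markers moved with the groups: of 9, Kdr (0.69, adjusted p = 0.00678) and Cdh5 (0.63, 0.0189) were called higher and Tek (-0.65, 0.00150) lower, and the summed intensity was 2738 to 3238 in CKO-labelled, 2260 to 2455 in double heterozygous and 2320 to 2493 in control hearts. Proepicardial and mesothelial markers were 6 of 7 below 0, with Tcf21 (-1.31, 0.0171) and Lrrn4 (-1.20, 0.00619) called lower. Their sums were 419 to 1032 in CKO-labelled, 584.4 to 938.7 in double heterozygous and 1196 to 1294 in control hearts. In that list the sums of the double heterozygous arrays, too, lay below all control arrays. For erythroid markers, 0 of 11 were below 0 and none was called, with sums of 20720 to 26400 in CKO-labelled, 21200 to 24460 in double heterozygous and 20690 to 24170 in control hearts. Among 11 cardiomyocyte markers, 6 were below 0 and Myh7 was called higher (0.27, 0.0154). Of the 6 foregut endoderm markers 2 were below 0, with Foxa2 listed at 0 on some arrays, and of the 5 leukocyte markers 4 were below 0, with none called in either list. The part of these cell types in the mitotic values was not tested.

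The module was measured by 115 probe sets in all. Of these, 93 had a CKO-labelled minus control difference below 0, 6 were called lower and 0 were called higher. The matching shares over all probe sets were not counted, so these counts have no background beside them. Of the 33 genes with more than 1 probe set, 17 had all of them below 0, a count that takes in probe sets at the bottom of the scale. Each CKO-labelled array had between 36 and 42 of the 50 genes below all control arrays, against 30.4% to 40.3% of all genes per array, and each double heterozygous array had 13 to 18, against 25.1% to 29.7%. Array 5 of the CKO-labelled group was the lowest of its group in 16 genes and array 1 the highest in 22. The number of arrays limits the precision.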

How the data were processed

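Per the labels' protocols, total RNA was amplified and converted to biotin-labelled cDNA for 1-colour arrays. The deposited values are linear intensities, 1 per probe set and array, and the submitters' processing notes name PLIER; the sources used here give none of its settings, scaling or detection calls. Of 45101 probe sets, 64 control probe sets were left out. The deposited intensities were turned into log2(value + 16), which shrinks changes of dim genes, and quantile normalised, since array medians spanned 0.465. No filter on intensity was used. With limma 3.58.1 (R 4.3.3), 1 linear model with a coefficient per genotype was fitted to the 11 arrays, with an intensity trend in the empirical Bayes step (8 residual degrees of freedom, 15.07 after moderation). Tests were two-sided, with Benjamini-Hochberg adjustment over 45037 probe sets within each contrast, and the procedure was tested on simulated data.

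Symbols came from the platform annotation (34945 probe sets with 1 symbol, 932 with several, 9160 with none; 34741 matched RefSeq by Entrez identifier). The members, roles, lists and tests were chosen with earlier results of these data known. Named with array values were members called in any test, the 2 of each role with the smallest p for CKO-labelled minus control, and members above 0. Aurka was given with array values outside this rule. For other lists, up to 3 genes with the smallest p and any called gene were named. No pair of arrays shared more than 0.829% identical values. Alternatives covered the offset, scaling, filter, probe set choice, variance model, array weights, a replicate block and left-out arrays. Motifs were counted in 1 RefSeq promoter window per gene.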

Additional observations from a re-analysis of the deposited data

Results flagged for a closer look

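Among 60 sets of 5 CKO-labelled values (50 genes and 10 scores), 4 (6.67%) had an array far from the other 4, where chance gives about 1 in 20. Bub3 was highest in CKO-labelled array 3, at 10.19, against 10.01 to 10.05 in the other 4. Kif11 was highest in CKO-labelled array 4, at 8.685, against 8.423 to 8.473. The score of the CDK1 cyclins and CDC25 phosphatases was highest in CKO-labelled array 1, at -0.08774, against -0.2926 to -0.2687. The score of the anaphase genes was lowest in CKO-labelled array 4, at -0.3506, against -0.1730 to -0.1029.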

How the results depend on the processing

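Over 24 alternatives, 11 of which left out 1 array, the median difference of the 50 genes kept its sign for CKO-labelled minus control and minus double heterozygous hearts, while the number called did not hold. Shares in brackets are of all genes called, in either direction, under the same alternative. For CKO-labelled minus control (4 called, 2.09%), the count was 0 on the deposited scale (0.308%), without the intensity trend (0.923%) and with only the 2 groups compared (0.896%). It was 1 with the unmoderated test (1.03%), 9 among brighter probe sets (4.83%), 9 without CKO-labelled arrays 2 and 3 (4.23%), 18 with array weights (7.15%), and 0 to 7 with 1 array left out (0.627% to 2.90%). It was 0 without any 1 control array, 1 without double heterozygous array 1 or CKO-labelled array 5, 2 without CKO-labelled array 4 and 7 without CKO-labelled array 1. For CKO-labelled minus double heterozygous (1 called, 0.550%), it was 0 on the deposited scale, without the trend, with only the 2 groups and unmoderated (0.0055% to 0.231%), 7 without arrays 2 and 3 (2.14%), 7 with array weights (2.00%), and 0 to 3 with 1 array left out (0.066% to 1.36%; 0 without any 1 control or double heterozygous array or CKO-labelled array 4 or 5, 3 without CKO-labelled array 1 or 3). For the F-test (3 called, 1.47%), it was 0 on the deposited scale, without the trend and unmoderated (0.258% to 0.682%), 5 passing over _x_at and _s_at probe sets (1.47%), 6 with probe sets averaged per gene (2.01%), 7 after median centring (0.956%), 8 among brighter probe sets (3.56%), 8 without arrays 2 and 3 (2.91%), 14 with array weights (5.03%), and 1 to 7 with 1 array left out (0.654% to 2.14%; 1 without any 1 control or double heterozygous array or CKO-labelled array 4 or 5, 5 without CKO-labelled array 2 or 3, 7 without array 1). For double heterozygous minus control it stayed at 0. The cause was not tested. The median for CKO-labelled minus control was -0.38 both on the deposited scale (all genes -0.070, 50 of 50 members below 0) and after median centring (all genes -0.079), and -0.26 to -0.20 with 1 array left out. For CKO-labelled minus double heterozygous it was -0.32 and -0.37 under those scalings and -0.23 to -0.17 with 1 array left out.

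Both scalings moved the whole module down, and with it the members near 0. On the deposited scale Cdc25b stood at -0.0086, Pttg1 at -0.16, Mki67 at -0.099 and Smc4 at -0.13. After median centring Cdc25b stood at -0.017, Pttg1 at -0.17, Mki67 at -0.11 and Smc4 at -0.14. Pttg1 was -0.19 passing over _x_at and _s_at probe sets, -0.084 as the mean of its probe sets and -0.0044 without CKO-labelled arrays 2 and 3. With the mean of probe sets Cenpa was 0.078 and Smc4 -0.13. With 1 array left out, values ran from -0.070 to 0.11 for Cdc25b, -0.083 to 0.070 for Pttg1, -0.063 to 0.093 for Smc4 and -0.045 to 0.013 for Incenp. With the replicate number as a block, 0 members were called for CKO-labelled minus control, 0 for CKO-labelled minus double heterozygous and 0 in the F-test, with Cdc25b at -0.017 and Smc4 at -0.083. The numbers do not pair the arrays: deviations of same-numbered arrays correlated at -0.0557 to 0.15 (9 pairs), against -0.135 to 0.118 for different numbers (18 pairs). The counts without CKO-labelled arrays 2 and 3 of genes below 0, of unadjusted p and of non-overlap were added after seeing the data. For CKO-labelled minus double heterozygous those were 44, 27 and 31 of 50, against 55.7%, 10.6% and 13.2% of all genes.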
